A study of Homo sapiens with 6 samples.

Results

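The subunits of respiratory complexes II to V and cytochrome c were described in the human embryonic kidney line HEK293, with and without a disrupted CNBP gene. The 41 genes were chosen by symbol, from the nuclear and the mitochondrial genome, and all 41 were found among the 19892 genes of the authors' deposited table. Of these, 6 are encoded in mitochondria and 35 in the nucleus. The study has 3 libraries from HEK293 cells in which CNBP, a zinc-knuckle protein that binds nucleic acids, was knocked out with CRISPR-Cas9, and 3 libraries from wild-type HEK293 cells. No other treatment is named, and the labels do not say whether the libraries of a group are separate clones or cultures. The table gives 1 FPKM value per gene for the knockout and 1 for the wild type. There is thus no replicate error, no p-value and no known depth behind any value, and differences are described by size only. FPKM is fragments per kilobase of transcript, scaled to the size of the library, so that genes of unequal length can be set beside each other. For very short genes such as MT-ATP8 it depends on how fragment length was corrected for.

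The respiratory chain passes electrons from metabolites to oxygen and pumps protons across the inner mitochondrial membrane. Complex II feeds electrons from succinate, complex III hands them to the small carrier cytochrome c, complex IV passes them to oxygen, and complex V, the ATP synthase, uses the proton gradient to make ATP. Complexes III, IV and V are built from subunits of both genomes, whereas complex II is encoded by the nucleus alone. Mitochondrial mRNAs are made inside the organelle from long transcripts that are cut into pieces, and they are translated by mitochondrial ribosomes. Nuclear subunit mRNAs are translated in the cytosol and their proteins are imported.

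The mitochondrial genes of complex V overlap, which bears on how their reads can be counted. In the GENCODE transcripts (GRCh38), the last 46 bases of MT-ATP8 are also the first 46 bases of MT-ATP6, and they stand in capitals in both sequences, with MT-ATP8 whole and the first 100 bases of MT-ATP6.
MT-ATP8: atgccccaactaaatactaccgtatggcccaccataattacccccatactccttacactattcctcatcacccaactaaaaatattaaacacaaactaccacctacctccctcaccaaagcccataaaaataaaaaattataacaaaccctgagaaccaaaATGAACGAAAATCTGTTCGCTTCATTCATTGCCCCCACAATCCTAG
MT-ATP6: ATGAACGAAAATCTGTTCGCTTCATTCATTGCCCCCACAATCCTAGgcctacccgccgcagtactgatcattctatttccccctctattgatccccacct
The shared stretch makes up 22.2% of the 207 bases of MT-ATP8 and 6.75% of the 681 bases of MT-ATP6. How the authors' counting divided reads from it was not given in the sources used here.

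Both mitochondrial genes of complex V were the lowest of the whole group in knockout cells relative to wild type, while the nuclear members of complex V lay close to 0. MT-ATP6, the proton channel subunit a, had 1402 FPKM in knockout cells and 2229 FPKM in wild-type cells. Its log2 ratio of knockout over wild type was -0.67, or 1.59-fold lower. MT-ATP8, a small membrane subunit next to it, had 4210 FPKM in knockout cells and 6409 FPKM in wild-type cells, a log2 ratio of -0.61. These 2 were the only members at a fold of 1.5 or more, and none was higher by that much. In all, 40 of the 41 members were compared, which means that they had at least 1 FPKM in one column and were above 0 in both. Of all 13219 genes compared, 2.78% were lower by 1.5-fold and 1.48% were higher. Among the 2528 genes with a mean of at least 50 FPKM, where 39 of the 40 members lie, the shares were 0.475% lower and 0.119% higher. In such bulk RNA, fewer cells with abundant mitochondrial RNA and less of it in every cell cannot be told apart.

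**Figure D1:**
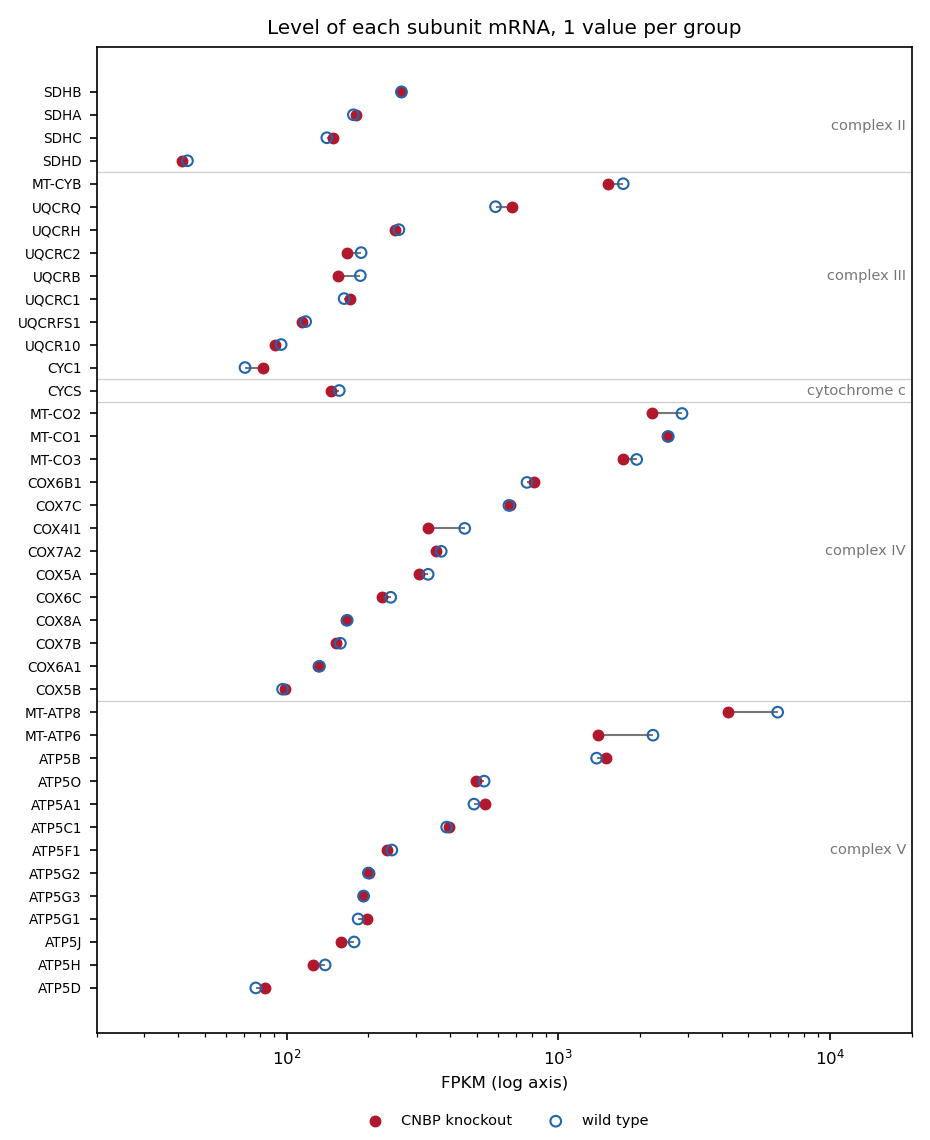
FPKM of each of the 40 compared members on a log axis, with knockout as filled and wild type as open circles, grouped by complex; each circle is 1 value per group, with no error. MT-ATP8 and MT-ATP6 show the widest gaps between the circles, and most nuclear members have circles that touch.

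All 6 mitochondrial members had a ratio below 0, with a median of -0.28 and a range from -0.67 to -0.02. The median of the 34 nuclear members compared was -0.02, with 20 below 0 and 14 above. Of all genes compared, 51.3% were below 0, and their median was -0.01, whereas of those with a mean of at least 50 FPKM 45.6% were below 0, with a median of 0.02. The nuclear members were close to each other in the 2 columns: 27 of 34 lay within 1.1-fold, against 51.4% of all genes and 64.7% of those with a mean of at least 50 FPKM. The summed FPKM of the mitochondrial members was 13571 in knockout cells and 17701 in wild-type cells. That of the nuclear members was 9842 in knockout cells and 9831 in wild-type cells. MT-ATP8 made up much of the mitochondrial difference, and without it the sums were 9361 FPKM in knockout cells and 11291 FPKM in wild-type cells. The nearly equal nuclear sums hold members that differed in both directions, among them ATP5B and UQCRQ, higher by 111 and 85.2 FPKM, and COX4I1, which fell by 120 FPKM.

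**Figure D2:**
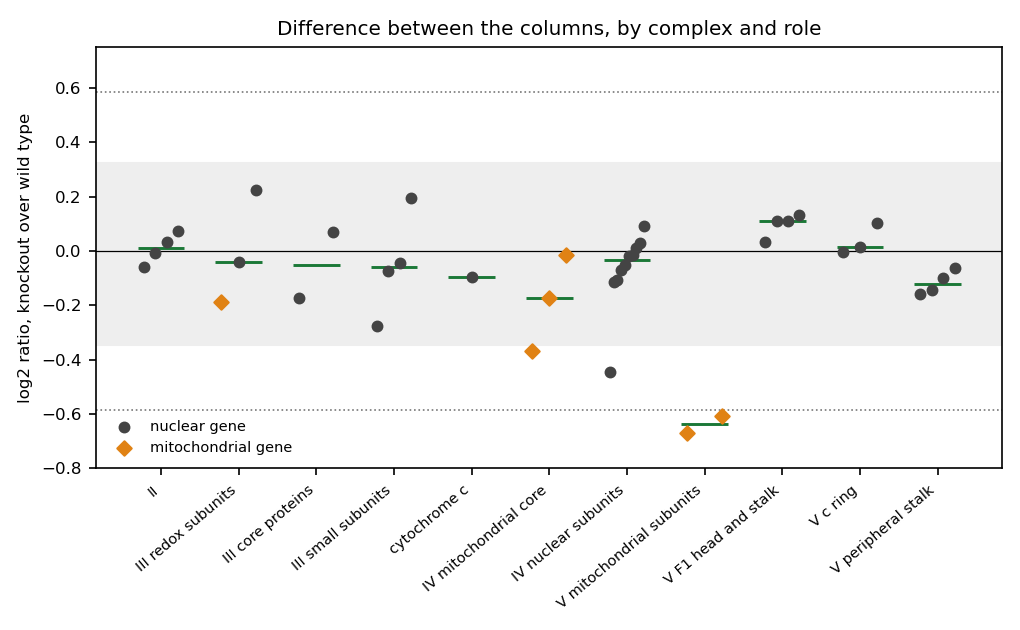
Log2 ratio of knockout over wild type for each member, by complex and role; circles are nuclear genes, diamonds mitochondrial genes, green bars medians. The grey band is the central 95% of genes with a mean of at least 50 FPKM (-0.35 to 0.32), and dotted lines mark 1.5-fold; MT-ATP6 and MT-ATP8 lie beyond the lower line.

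Complex II, which oxidises succinate and is also an enzyme of the TCA cycle, had the smallest differences. SDHA, the flavoprotein that binds succinate, had 180 FPKM in knockout cells and 176 FPKM in wild-type cells. SDHB, the iron-sulfur subunit, had 263 FPKM in knockout cells and 265 FPKM in wild-type cells. The membrane anchors differed slightly more: SDHC had 148 FPKM in knockout cells and 141 FPKM in wild-type cells, and the least abundant compared member, SDHD, had 41.4 FPKM in knockout cells and 43.2 FPKM in wild-type cells. The 4 log2 ratios ran from -0.06 to 0.07, with 2 on each side of 0. A pseudogene at least 95% identical over at least 50% of the coding sequence is annotated for SDHA, SDHC and SDHD, and likewise for UQCRFS1, CYCS, COX6A1, COX7C, ATP5F1 and ATP5H, and the reads of such genes may be split.

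Complex III showed no common direction. Of its 3 redox subunits, the mitochondrially encoded cytochrome b, MT-CYB, had 1519 FPKM in knockout cells and 1732 FPKM in wild-type cells (log2 ratio -0.19). CYC1, cytochrome c1, had 82.1 FPKM in knockout cells and 70.4 FPKM in wild-type cells, and its 0.22 was the highest ratio of all 40. UQCRFS1, the Rieske iron-sulfur protein, lay between them at -0.04, with 114 FPKM in knockout cells and 118 FPKM in wild-type cells. The 2 core proteins, which face the matrix, differed in sign, with UQCRC1 at 0.07 and UQCRC2 at -0.17. Among the small subunits, UQCRB had 154 FPKM in knockout cells and 187 FPKM in wild-type cells (-0.28), and UQCRQ had 673 FPKM in knockout cells and 587 FPKM in wild-type cells (0.20). UQCRH, the hinge protein, had -0.05 and UQCR10 had -0.08. UQCR11 was listed at 0 in both columns and gives no ratio; a listed 0 can be a failed estimate, since RPL41, a ribosomal protein gene that cells use throughout, is listed at 0 in both as well. CYCS, the carrier between complexes III and IV, had 146 FPKM in knockout cells and 156 FPKM in wild-type cells, a log2 ratio of -0.10.

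Complex IV had 10 of 13 ratios below 0, most of them small. Its catalytic core is mitochondrial, and the 3 core mRNAs were unlike each other. MT-CO1, which holds the oxygen-reducing site, had 2510 FPKM in knockout cells and 2538 FPKM in wild-type cells, a log2 ratio of -0.02 and the smallest difference of the mitochondrial genes. MT-CO2, which takes electrons from cytochrome c, had 2207 FPKM in knockout cells and 2851 FPKM in wild-type cells (-0.37). MT-CO3 had 1723 FPKM in knockout cells and 1941 FPKM in wild-type cells (-0.17).

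Of the 10 nuclear subunits of complex IV, 9 lay within 1.1-fold, and their median was -0.04. The exception was COX4I1, a subunit through which ATP regulates the enzyme, with 332 FPKM in knockout cells and 452 FPKM in wild-type cells. Its log2 ratio of -0.44, or 1.36-fold lower, was the lowest of the nuclear members, and 1.31% of genes with a mean of at least 50 FPKM had a lower one. It overlaps EMC8 on the opposite strand, which had 38.1 FPKM in knockout cells and 37.5 FPKM in wild-type cells. The other subunits lay between -0.11 (COX5A) and 0.09 (COX6B1, the most abundant nuclear subunit of this complex, with 817 FPKM in knockout cells and 767 FPKM in wild-type cells). COX6C had -0.11, COX7A2 -0.07, COX7B -0.05, COX8A -0.02, COX6A1 -0.01, COX7C 0.01 and COX5B 0.03. At a fold of 1.2, 5 members were lower (MT-ATP6, MT-ATP8, COX4I1, MT-CO2 and UQCRB) and none was higher. Of all genes compared, 13.2% were lower at that fold and 8.62% higher. Of those with a mean of at least 50 FPKM the shares were 5.66% and 4.39%.

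The 11 nuclear members of complex V differed little, with opposite signs in the F1 part and the peripheral stalk. Of its subunits outside the chosen members, ATP5I, named after its value was seen, had a lower log2 ratio of -0.40. C14orf2 had -0.05, ATP5J2 -0.04, ATP5L -0.02, ATP5E 0.04 and USMG5 0.14. The 4 subunits of the F1 part, where ATP is made, were all above 0, with a median of 0.11. ATP5B, the catalytic beta subunit and the most abundant nuclear member, had 1494 FPKM in knockout cells and 1383 FPKM in wild-type cells. ATP5A1, the alpha subunit, had 536 FPKM in knockout cells and 489 FPKM in wild-type cells (0.13), and in the central stalk ATP5C1 had a ratio of 0.03 and ATP5D of 0.11. The 4 subunits of the peripheral stalk, which holds the F1 part in place, were all below 0, with a median of -0.12. ATP5J, coupling factor 6, had 159 FPKM in knockout cells and 177 FPKM in wild-type cells (-0.16). ATP5H had -0.14, ATP5O, the oligomycin sensitivity protein, -0.10, and ATP5F1 -0.06. Of all genes compared 51.3% were below 0, and of those with a mean of at least 50 FPKM 45.6%. Every ratio of both sets lay within the central 95% of the latter genes, from -0.35 to 0.32. The common sign of the stalk did not hold relative to neighbouring genes (the median ratio of the closest 20 subtracted): ATP5J was then at 0.01 and ATP5O at 0.07, both on chromosome 21, while ATP5H was at -0.15 and ATP5F1 at -0.11. The F1 subunits stayed above 0 but were also smaller, with ATP5A1 at 0.05, ATP5B at 0.04, ATP5C1 at 0.02 and ATP5D at 0.04. Before neighbours were subtracted, the medians of these 2 sets differed by 0.23 on the log2 scale. The sets were compared after their values were seen, and there is no test of the difference. ATP5G1, ATP5G2 and ATP5G3 encode the same mature c subunit of the rotor ring. ATP5G1 had 197 FPKM in knockout cells and 183 FPKM in wild-type cells (0.10), ATP5G2 had a log2 ratio of 0.01, and ATP5G3 had 192 FPKM in both. The 3 genes were expressed at like levels, within 1.05-fold of each other in knockout cells and 1.09-fold in wild-type cells.

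Set beside each other within a complex, the mitochondrial and nuclear ratios did not overlap in complex V and overlapped in complexes III and IV. Both mitochondrial ratios of complex V lay below those of its 11 nuclear members, which ran from -0.16 to 0.13. Of genes with a mean of at least 50 FPKM, 0.198% had a lower ratio than MT-ATP6 and 0.316% a lower one than MT-ATP8. These 2 genes share one mRNA, so that the split within complex V rests on 1 transcript. ATP5I, a nuclear subunit outside the members, had -0.40. In complex IV, 6 of 10 nuclear ratios lay below that of MT-CO1 and 1, COX4I1, below that of MT-CO2. In complex III, 1 of 8 nuclear ratios, that of UQCRB, lay below MT-CYB. Mitochondrial genes supplied 57.7% of the summed FPKM of complex V in knockout cells and 68.3% in wild-type cells. These shares include MT-ATP8, a very short gene whose FPKM depends on how fragment length was corrected for. For complex IV the shares were 66.5% in knockout cells and 68.5% in wild-type cells, and for complex III 47.1% in knockout cells and 50.9% in wild-type cells.

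**Figure D3:**
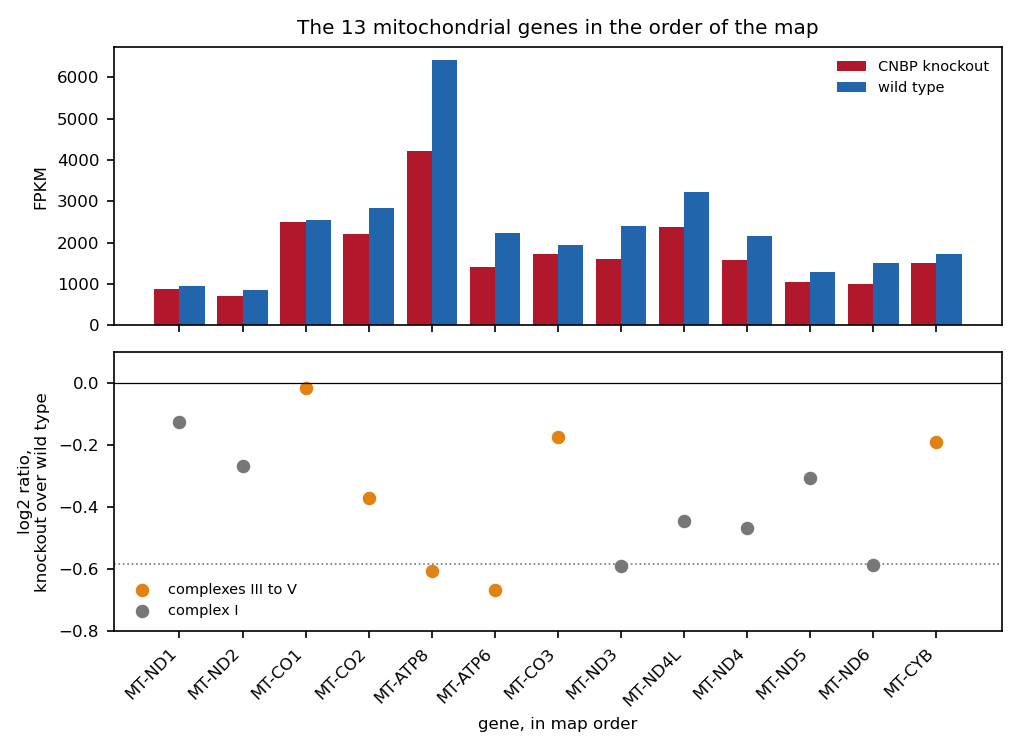
The 13 mitochondrial genes in the order of the map, with FPKM above (red bars knockout, blue bars wild type) and the log2 ratio of knockout over wild type below; the dotted line marks 1.5-fold. All 13 ratios are below 0, from -0.67 for MT-ATP6 to -0.02 for MT-CO1, and neighbours along the map are often unlike.

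The other 7 mitochondrial genes encode complex I, and all 7 were below 0 as well, with a median of -0.44. Their range, from -0.59 to -0.12, overlaps that of the 6 genes of complexes III to V. Ratios did not follow the order of the genes on the map. MT-ATP8 and MT-ATP6, which share one mRNA, were 0.06 apart on the log2 scale, and the other pair on one mRNA, MT-ND4L and MT-ND4, were 0.02 apart. MT-ATP6 and MT-CO3, which are next to each other and overlap in the annotation, were 0.50 apart, and MT-CO1 and MT-CO2 were 0.35 apart. MT-ND6, the one gene of the opposite strand, had a ratio of -0.59.

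Short mitochondrial genes had lower ratios, but less clearly so when counted as mRNAs. The 6 genes under 700 bases had a median of -0.59 and the 7 of 700 bases or more a median of -0.19. Spearman's rho between ratio and gene length over the 13, which share libraries and long precursor transcripts, was 0.65, given as a description. MT-ATP8 and MT-ATP6, and likewise MT-ND4L and MT-ND4, lie on one mRNA, so that 3 of the 6 short genes are pieces of longer mRNAs. With each such pair counted once by its joint span, a choice made after the values were seen, rho over the 11 mRNAs was 0.42. The mRNA of MT-ATP8 and MT-ATP6, at 842 bases, then had the lowest ratio of all 11, -0.64. The 42 nuclear genes with a longest transcript under 700 bases and a mean of at least 50 FPKM had a median of 0.02. Their length is that of the longest transcript, and so is not the same measure as the mitochondrial gene length. With each FPKM multiplied by the length of its gene, so that long genes weigh more, the 6 members summed to a log2 ratio of -0.25, against -0.38 for the plain FPKM sums. The FPKM of a gene as short as MT-ATP8, counted by itself, depends on how fragment length was corrected for, and the part of length in these ratios was not tested. In GENCODE, 5 of the 6 members (not MT-CYB) also have a pseudogene in the nuclear genome that matches them at 97.5% to 98.6% identity. None of these 5 copies is listed in the table under its GENCODE name, and how reads matching both were assigned was not given in the sources used here.

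**Figure D4:**
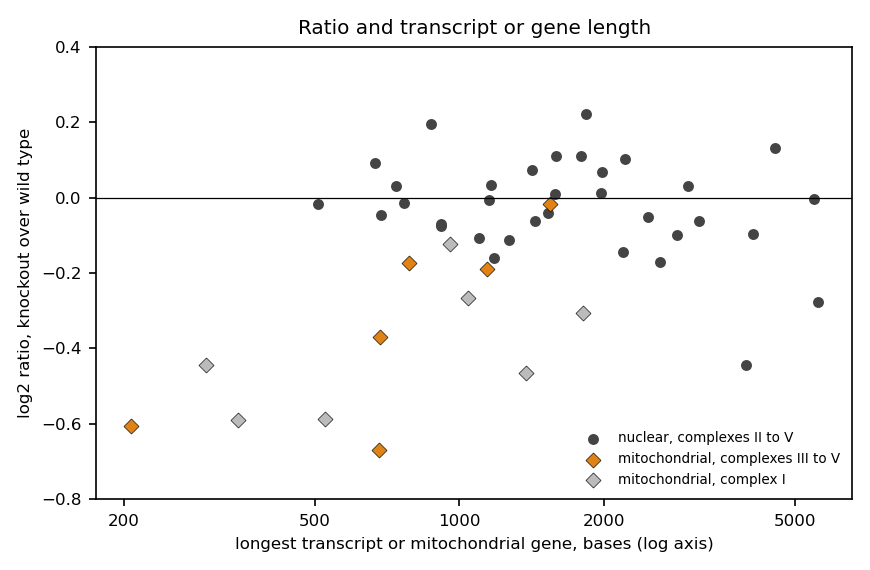
Log2 ratio of knockout over wild type against length (log axis), for nuclear members by their longest transcript (circles) and the 13 mitochondrial genes by gene length (diamonds). The 6 mitochondrial genes under 700 bases lie at -0.37 or lower, while the 3 nuclear members of that length lie near 0.

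Several nuclear members shared the shift of their neighbourhood. COX4I1 and UQCRC2 lie on chromosome 16, where the median of 622 genes was -0.12, and ATP5J and ATP5O on chromosome 21, where the median of 125 genes was -0.21. The 20 genes nearest to COX4I1 had a median of -0.26, and with it taken off the ratio of COX4I1 was -0.19 in place of -0.44. UQCRC2 had -0.17 and its neighbours -0.19, so that 0.02 was left. ATP5J had -0.16 and its neighbours -0.17, and ATP5O stood above its neighbours by 0.07. COX7A2, on chromosome 6, likewise stood above its neighbours by 0.11. UQCRB, CYC1 and UQCRQ were unlike their neighbours: the differences were -0.24, 0.16 and 0.19. These 3 lie at the ends of the range once neighbours are taken off, together with COX4I1. Over the 34 nuclear members, 12 were below their neighbours' median, and the median difference was 0.02.

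**Figure D5:**
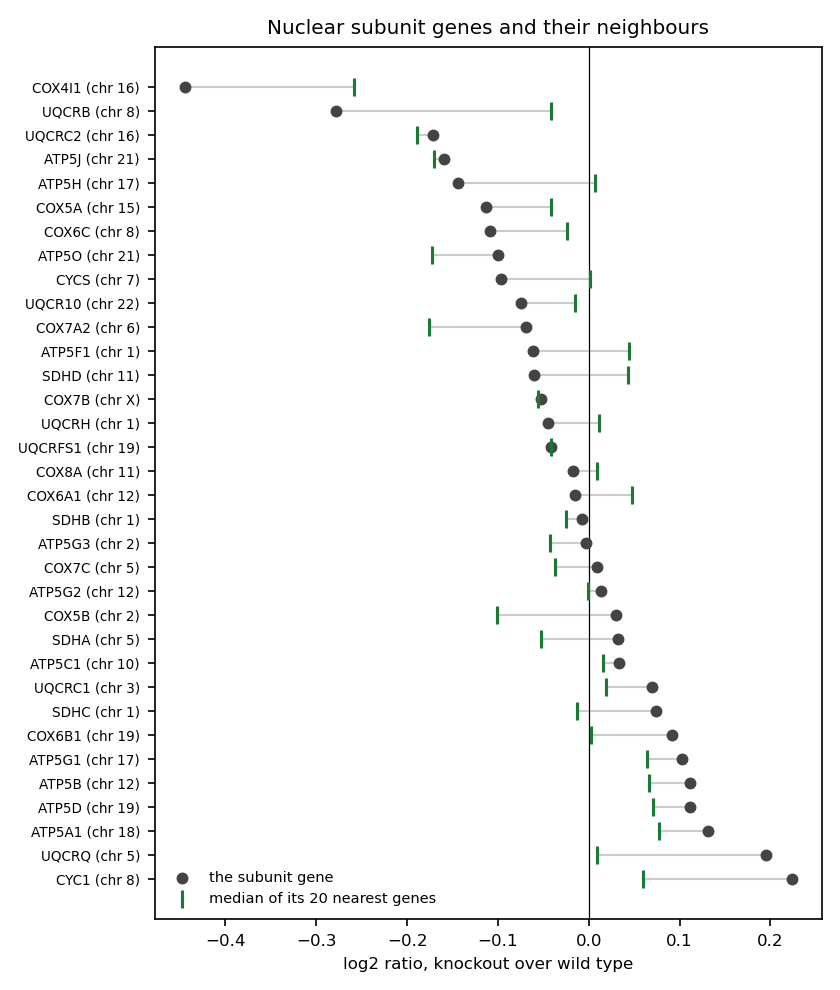
Log2 ratio of knockout over wild type for the 34 nuclear members (circles) and the median of the 20 nearest compared genes (green ticks), ordered from the lowest ratio. The ticks of COX4I1, UQCRC2, ATP5J, ATP5O and COX7A2 lie farthest to the left; those of UQCRB, UQCRQ and CYC1 lie near 0.

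Promoters of respiratory genes are known for sites of NRF1 and of ETS factors such as GABP. The 250 bases before the start were searched on both strands for GCATGCG, the middle of the NRF1 motif, and for CCGGAAG (ETS) in the RefSeq promoter table (GRCh38.p14), in which 28 of the 35 nuclear members had an entry. These motifs were chosen after the ratios were seen, and a gene with several starts was counted if any of them had a match. GCATGCG was found for 8 of the 28 members and in 3.39% of all 35116 promoters, and CCGGAAG for 12 members (42.9%) and in 8.52% of all promoters. The median log2 ratio was -0.01 for the members with either motif and -0.06 for those with neither. The promoters of COX4I1 (chr16:85799445-85799694, plus strand) and UQCRQ (chr5:132866392-132866641, plus strand) are shown since these genes had the lowest and the highest ratio among the members with an entry, with any match in capitals.
COX4I1: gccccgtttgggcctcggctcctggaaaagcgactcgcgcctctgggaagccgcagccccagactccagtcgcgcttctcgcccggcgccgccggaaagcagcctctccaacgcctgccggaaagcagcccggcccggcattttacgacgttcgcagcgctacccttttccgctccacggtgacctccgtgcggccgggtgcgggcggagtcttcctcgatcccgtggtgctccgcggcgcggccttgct
UQCRQ: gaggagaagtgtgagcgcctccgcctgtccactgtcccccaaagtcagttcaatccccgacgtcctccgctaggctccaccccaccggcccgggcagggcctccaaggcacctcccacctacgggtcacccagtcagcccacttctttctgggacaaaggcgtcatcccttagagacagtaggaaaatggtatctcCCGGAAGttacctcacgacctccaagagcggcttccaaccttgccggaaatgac
UQCRQ holds CCGGAAG and COX4I1 holds neither motif in this window. A match describes the letters and is not a site.

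CNBP is described in the title of the series as a protein that binds G-rich elements of coding sequences, and the motif TGGAG was counted in the longest coding sequence of each member on the sense strand. It was absent from 9 of the 34 compared nuclear members and from 4 of the 6 mitochondrial ones, against 6.85% of 13132 genes compared. The coding sequences of both sets are short. Their median was 480 bases for these nuclear members and 732.5 bases for the mitochondrial ones, against 1431 bases over all genes. Per kilobase, the nuclear members had a median of 2.36 motifs, the mitochondrial ones 0 and all genes 2.84. The densest member was COX7B, a small subunit of complex IV, with 2 motifs in 240 coding bases, in capitals.
COX7B: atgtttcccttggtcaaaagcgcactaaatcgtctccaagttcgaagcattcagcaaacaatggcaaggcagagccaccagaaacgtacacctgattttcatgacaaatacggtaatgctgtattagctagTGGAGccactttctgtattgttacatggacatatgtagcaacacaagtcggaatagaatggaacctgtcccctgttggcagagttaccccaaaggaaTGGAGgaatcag
Its log2 ratio was -0.05. The nuclear members without the motif had a median ratio of -0.07 and those with it -0.01, and Spearman's rho between ratio and motifs per kilobase over the 34 was 0.06. Over all 40 compared members it was 0.26, and the mitochondrial members had a median ratio of -0.40 without the motif (4 genes) and -0.19 with it (2 genes). These values concern mRNA level, and translation was not analysed here.

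The lists of genes that build and serve these complexes had median ratios close to 0. Of 36 genes for the assembly of complexes II to V or the inhibition of complex V, 20 were below 0 and 16 above. Their median was -0.02. PET100, a complex IV assembly factor, was the only one at 1.5-fold, with 44.2 FPKM in knockout cells and 102 FPKM in wild-type cells (log2 ratio -1.21). It overlaps CTD-3214H19.4 on the same strand, which had 16.6 FPKM in knockout cells and 14.9 FPKM in wild-type cells, and reads from their shared exons are uncertain. The lists for mitochondrial RNA, mitochondrial DNA, nuclear regulators and the TCA cycle held no gene at 1.5-fold. Among all 13219 genes compared, 2.78% were lower by that fold and 1.48% higher. Neither 1 of 36 nor 0 in lists of 8 to 24 genes stands out from these shares, which cover genes of all levels. Among genes with a mean of at least 50 FPKM, to which PET100 belongs, 0.475% were lower by 1.5-fold. A difference like that of PET100 is thus less common at its level. At 1.2-fold, 5 of the 23 complex IV assembly factors were lower (PET100, CMC1, COX17, CMC2 and COA5) and 1 higher (COX19). The shares over all genes at 1.2-fold were 13.2% lower and 8.62% higher. Of the complex II factors, SDHAF1 had 0.07 and SDHAF2 -0.11, of those of complex III, BCS1L had 0.07 and UQCC1 -0.02, and of those of complex V, ATPAF1 had -0.18 and the inhibitor ATPIF1 0.01.

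Genes for mitochondrial transcription and RNA handling were evenly spread among the 24 compared, with 12 above and 12 below 0 and a median of 0.01. SLIRP, which stabilises mitochondrial mRNAs, had 323 FPKM in knockout cells and 306 FPKM in wild-type cells. TFAM, which packages mitochondrial DNA and starts its transcription, had 134 FPKM in knockout cells and 131 FPKM in wild-type cells. The 10 genes of mitochondrial DNA maintenance had a median of 0.03, with SSBP1 at -0.07 and POLG, the DNA polymerase, at 0.05. The 8 nuclear regulators of respiratory genes had a median of 0.03, with YY1 at 0.10 and PPRC1 at 0.14. The 14 enzymes of the TCA cycle had a median of -0.03, with citrate synthase, CS, at 0.06 and MDH2 at -0.03. Other subunits and isoforms had a median of -0.04 over 12 genes. COX6B2, a testis isoform, had 1.39 FPKM in knockout cells and 4.12 FPKM in wild-type cells, and UQCRHL, a close copy of UQCRH, had 2.40 FPKM in knockout cells and 1.11 FPKM in wild-type cells. Both values are low, and the 2 genes pass 1.5-fold in opposite directions.

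The columns themselves rest on their labels. CNBP had 214 FPKM in knockout cells and 202 FPKM in wild-type cells. Small Cas9 deletions need not lower an mRNA, so that its level does not check which column is which. Why the CNBP mRNA was not lower in the knockout column was not tested. VIM, KRT8, KRT18 and INA, which HEK293 cells express, were present in both, while LHX1 and NEFL were listed at 0 in both. The other HEK293 markers looked up were low. PAX2 had 2.16 FPKM in knockout cells and 2.71 FPKM in wild-type cells, and NEFM had 1.02 FPKM and 0.912 FPKM. PAX8, at 0.564 FPKM in knockout cells and 0.357 FPKM in wild-type cells, was below the minimum for a ratio. The 3 fibroblast markers were expressed and all below 0, with a median log2 ratio of -0.25: COL1A1 had 38.2 FPKM in knockout cells and 41.3 FPKM in wild-type cells, COL1A2 had 40.1 FPKM in knockout cells and 47.8 FPKM in wild-type cells, and DCN had a log2 ratio of -0.39. The part of this shift in the subunit ratios was not tested. The 4 blood cell markers summed to 0.650 FPKM in knockout cells and 0.766 FPKM in wild-type cells, and the 3 endothelial markers to 0.187 FPKM in knockout cells and 0.0999 FPKM in wild-type cells.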

How the data were processed

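Libraries of HEK293 RNA came from a directional kit, as the labels' protocols state. FPKM values, 1 per gene and group, were computed and deposited by the authors. The submitters' processing notes name TopHat, Cufflinks, Cuffdiff and hg19 with no versions. The unit has no header and was taken from these tools and from the values, whose column sums were 612941 for knockout and 612366 for wild type. How 3 libraries became 1 value, and which strand setting and annotation were used, was not given in the sources used here. Tests foreseen for p-values or values per library could not be used.

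Ratios are log2 of knockout over wild type, without pseudocount, for genes that reached 1 FPKM in either column and were above 0 in both. A fold of 1.5 was counted. The members, gene lists and fold were chosen with earlier results of these data known. All members were named; of other lists, genes past the fold or else the 2 most abundant. Some genes of the lists were not matched by symbol. Gene order, exon overlaps with other listed genes, coding sequences and pseudogene copies (BLAST 2.17.0, at least 95% identity over at least 50% of the coding sequence) came from GENCODE release 29, joined by Ensembl ID for 19225 genes. That release is on GRCh38, another build than the one named, so overlaps may differ. The deposited log2 column was not used. The fold and neighbour steps were tested on simulated data. The computation ran in Python 3.11.15 with pandas 2.3.3, numpy 2.4.6, scipy 1.17.1 and, for figures, matplotlib 3.10.9.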

Additional observations from a re-analysis of the deposited data

How the results depend on the processing

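Under the settings run, the median of the nuclear members lay between -0.04 and 0.02, that of all 6 mitochondrial members between -0.30 and -0.27, and that of MT-ATP6 and MT-ATP8 together between -0.66 and -0.63. With members left out, the mitochondrial median was -0.19, either without MT-ATP8 or as the value of MT-CYB alone. Of the 40 compared members, 30 kept the sign of their ratio under every setting run, and the 10 that did not had absolute log2 ratios of 0.17 or less. Most settings (minima, pseudocounts, folds and members left out) cannot change a sign. Only centring, rescaling and taking off chromosome or neighbour medians can, and those medians were taken off for nuclear members only. A kept sign is thus little evidence, least of all for the mitochondrial members. Members lower by the fold numbered 2, and 5 at a fold of 1.2 (2 of them nuclear), 0 at a fold of 2, and 1 with MT-ATP8 left out, a setting added after the data were seen. The count was 0 when 20 members with a near-identical copy or an overlap were left out, since 5 of the 6 mitochondrial members are among them. The complex I mitochondrial genes lower by the fold numbered 2, against 6 at 1.2-fold, 0 at 2-fold and 0 when ratios were centred on the median of all genes, since MT-ND3 and MT-ND6 lie at the threshold. At 1.2-fold the complex IV assembly list of 23 genes had 5 lower and 1 higher, and the 12 other subunits and isoforms had 2 lower and 1 higher. The 14 TCA cycle genes had 2 lower, the 10 DNA maintenance genes 1 lower and 1 higher, and the 8 regulators 1 lower. The complex V assembly list of 5 genes and the mitochondrial RNA list of 24 had 1 higher each. Over all genes compared, 13.2% were lower at 1.2-fold and 8.62% higher. Other subunits and isoforms past 1.5-fold were 0 lower and 0 higher with a minimum of 5 FPKM, and 2 lower and 2 higher with none. Pseudocounts of 1 and 0.1, and rescaling without mitochondrial genes, changed no count and moved no ratio by 0.1 or more. No paired analysis was possible because the table holds 1 value per group, and no library could be left out for the same reason. The depth is unknown.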

Other observations

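Isoforms that replace subunits of complex IV in other tissues were low or listed at 0. COX7A1, the heart and muscle counterpart of COX7A2, had 4.80 FPKM in knockout cells and 5.52 FPKM in wild-type cells. COX4I2, the counterpart of COX4I1, was listed at 0 in both columns. COX6A2, the muscle counterpart of COX6A1, had 0.0725 FPKM in knockout cells and was listed at 0 in wild-type cells. ATP5I, a membrane subunit of complex V outside the chosen members, was named after its value was seen: it had 245 FPKM in knockout cells and 325 FPKM in wild-type cells, a log2 ratio of -0.40, where its 20 nearest genes had a median of -0.05.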
